A study of Mus musculus with 60 samples.

Results

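The NF-kB factors and their inhibitors were described here as 8 genes taken by name. These are the inhibitors Nfkbia and Nfkbib, the related nuclear member Nfkbiz, and the factors Nfkb1, Nfkb2, Rela, Relb and Rel. All 8 were held in all 10 tables used, out of 13986 genes found in any table and 13393 found in all of them. The mice were wild type C57BL/6, aged 105 postnatal days, and poly(A)-enriched RNA of their hippocampus was sequenced in 60 libraries. Each of 12 groups has 5 libraries, for 3 tissues (the whole hippocampus or its dorsal or ventral part) under 4 conditions. Homecage is the reference condition of every tissue, and tissue of the Handling, Restraint and Swim groups was taken 45 minutes after the treatment. The labels do not say how long a treatment lasted or which mouse a library came from. The design text speaks of 5 mice per condition, and each condition has 15 libraries over the 3 tissues, so libraries of different tissues may come from the same mice. Each table is the authors' own comparison of a pair of groups: every treatment with Homecage in each tissue, which makes 9 treatment tables, and ventral with dorsal hippocampus in Homecage. The tables give group means, so no spread between libraries stands beside a level, and the error printed with a log2 fold change is a standard error worked out from its p-value.

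NF-kB is a family of transcription factors that bind DNA as dimers of RelA, RelB, c-Rel, p50 (made from the Nfkb1 product) and p52 (made from the Nfkb2 product). In resting cells the inhibitors IkB alpha (Nfkbia) and IkB beta (Nfkbib) hold the dimers in the cytoplasm. When kinases of the IKK complex mark them for destruction the dimers move to the nucleus, where they switch on Nfkbia itself, and the new IkB alpha ends the signal. IkB zeta (Nfkbiz) is an inducible nuclear member that acts on a subset of target genes. In brain the family is known from microglia and endothelium under inflammation and from neurons after synaptic activity, and Nfkbia is also known as a glucocorticoid-induced gene.

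Promoter sequences are shown for the 3 members in which a binding motif of the family itself was found, Nfkbia at greater length because it is the member that changed most. RefSeq promoter windows on GRCm38.p6 (250 bases before to 50 after a start) matched 5 of the 8 genes in 7 windows, namely Nfkbia, Nfkbib, Nfkb2, Rela and Rel, with 3 windows for Nfkb2. Relb, Nfkb1 and Nfkbiz had no entry. A match to the kappa B motif was searched on both strands, with overlapping matches allowed. It was found in 3 of these 5 genes, and in 4.51% of all 32851 windows. The first count is per gene and the share is per window, so they are not like measures. By window, a match was in that of Nfkbia, in all 3 of Nfkb2 and in that of Rel, but not in those of Nfkbib and Rela. With 3 windows, Nfkb2 also had more sequence in which a match could fall. Windows 2 and 3 of Nfkb2 also hold the same match, GGGACTTTCC. Capitals mark a kappa B match in each line below. In the Nfkb2 and Rel lines an overlapping match on the opposite strand, at -38 and -91, ends at the base just after the capitals, which is left in lower case. The same Nfkb2 window also holds a match at -11, outside the line shown. The first line is the whole stretch of 250 bases upstream of the Nfkbia start (chr12:55492648-55492897, minus strand), where the match lies on the opposite strand at position -29 from the start. The others are 30 bases around the match at position -39 from the first Nfkb2 start (chr19:46304688-46304717, plus strand) and around the match at position -92 from the Rel start (chr11:23771042-23771071, minus strand).
Nfkbia: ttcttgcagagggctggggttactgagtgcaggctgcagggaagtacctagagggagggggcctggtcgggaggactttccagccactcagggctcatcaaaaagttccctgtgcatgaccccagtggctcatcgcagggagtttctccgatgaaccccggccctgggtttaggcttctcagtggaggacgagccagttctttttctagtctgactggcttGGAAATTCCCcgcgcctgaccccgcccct
Nfkb2: ggatcgtcacGGGAATTCCCcccctcgggg
Rel: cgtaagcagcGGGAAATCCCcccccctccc

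Other motifs were searched in the same windows on both strands. The palindromic glucocorticoid response element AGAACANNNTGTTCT was in none of the 7 windows and in 0.00913% of all windows, 3 of 32851. Looser forms of this element, and sequence outside the windows of 300 bases, were not searched. The cyclic AMP response element TGACGTCA (1.79% of all windows) and the serum response CArG box (1.63%) were in none of the 7 either. At shares this low nearly any 7 windows would lack these motifs, so their absence says nothing particular about these genes. The pattern TGANTCA, with any base at N, is looser than the AP-1 consensus, which has C or G there. It was in 7.81% of all windows and in 1 Nfkb2 window, as TGAATCA, which lies outside that consensus. A match in letters is a description of the sequence, and these tables hold no measurement of binding.

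The genes lie on 6 chromosomes of GRCm38 in the GENCODE M21 annotation. Nfkbia (ENSMUSG00000021025) is at chromosome 12, 55489410 to 55492647, Nfkbib (ENSMUSG00000030595) at chromosome 7, 28758251 to 28767512, and Nfkbiz (ENSMUSG00000035356) at chromosome 16, 55811375 to 55838899. Nfkb1 (ENSMUSG00000028163) is at chromosome 3, 135584655 to 135691547, Nfkb2 (ENSMUSG00000025225) at chromosome 19, 46304320 to 46312385, and Rela (ENSMUSG00000024927) at chromosome 19, 5637483 to 5648130. Relb (ENSMUSG00000002983) is at chromosome 7, 19606217 to 19629438, and Rel (ENSMUSG00000020275) at chromosome 11, 23736847 to 23770970. Exons of 2 members run across exons on the opposite strand. Nfkbib shares 314 of its exon bases with Ccer2 and 42 with Sirt2, and Nfkb2 shares 299 with Psd and 531 with the noncoding AC114539.1. Whether counting used strand is not given in the sources used here, so reads of Nfkbib and Nfkb2 may include reads of these partners.

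Summed over the genes held in all tables, the mean estimated counts of a group came to 19.9M at the lowest and 25M at the highest, where M stands for mega. As a check of the treatments, the authors' deposited tables have Fos, an activity-dependent early gene, higher by 1.35 to 2.06 on the log2 scale in all 9 treatment tables. The corticosteroid-induced kinase Sgk1 was higher by 0.36 to 1.00 in the authors' deposited tables. As a check of the tissue, all 8 hippocampal neuron markers were measured, and in the ventral against dorsal table all 6 ventral hippocampus markers were higher while 4 of 6 dorsal hippocampus markers were lower and 1 was higher. Choroid plexus markers, genes of a tissue that lies within the ventricles, were high in 2 groups. Their summed level was 1368 CPM (counts scaled to a group total of 1M) in dorsal Restraint and 1302 in ventral Handling. It was 50.3 to 138 in the other groups, over the 6 of 10 markers held in every table. Fold changes also followed the GC content of the transcripts, with a rank correlation across genes from -0.60 in dorsal Swim to 0.70 in ventral Swim.

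The family's treatment response was carried by Nfkbia. Of 72 values (8 genes in 9 treatment tables), 7 passed an adjusted p of 0.05 in the authors' deposited tables, all of them rises, and 6 of the 7 belong to Nfkbia. It was higher after Restraint and after Swim in whole, dorsal and ventral hippocampus, by 1.48 to 1.77 fold in the authors' deposited tables, and passed in no Handling table. The seventh was Nfkbiz in ventral hippocampus after Restraint. Without Nfkbia, 1 of 63 values passed, and 9 of 63 had an unadjusted p under 0.05. What share of all genes had an unadjusted p under 0.05 was not worked out. Counts at that cut, here and below, therefore have no background beside them. In whole hippocampus 0.395% of all genes passed after Handling, 0.541% after Restraint and 0.395% after Swim. The shares were 0.125%, 0.616% and 0.447% in dorsal hippocampus and 0.856%, 2.39% and 6.94% in ventral hippocampus. Against these shares 1 of 8 members passed in whole Restraint, whole Swim, dorsal Restraint, dorsal Swim and ventral Swim, 2 of 8 in ventral Restraint and 0 of 8 in each Handling table. In the Handling tables the members with an unadjusted p under 0.05 were Rel in dorsal and ventral and Nfkb1 in ventral hippocampus.

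**Figure D1:**
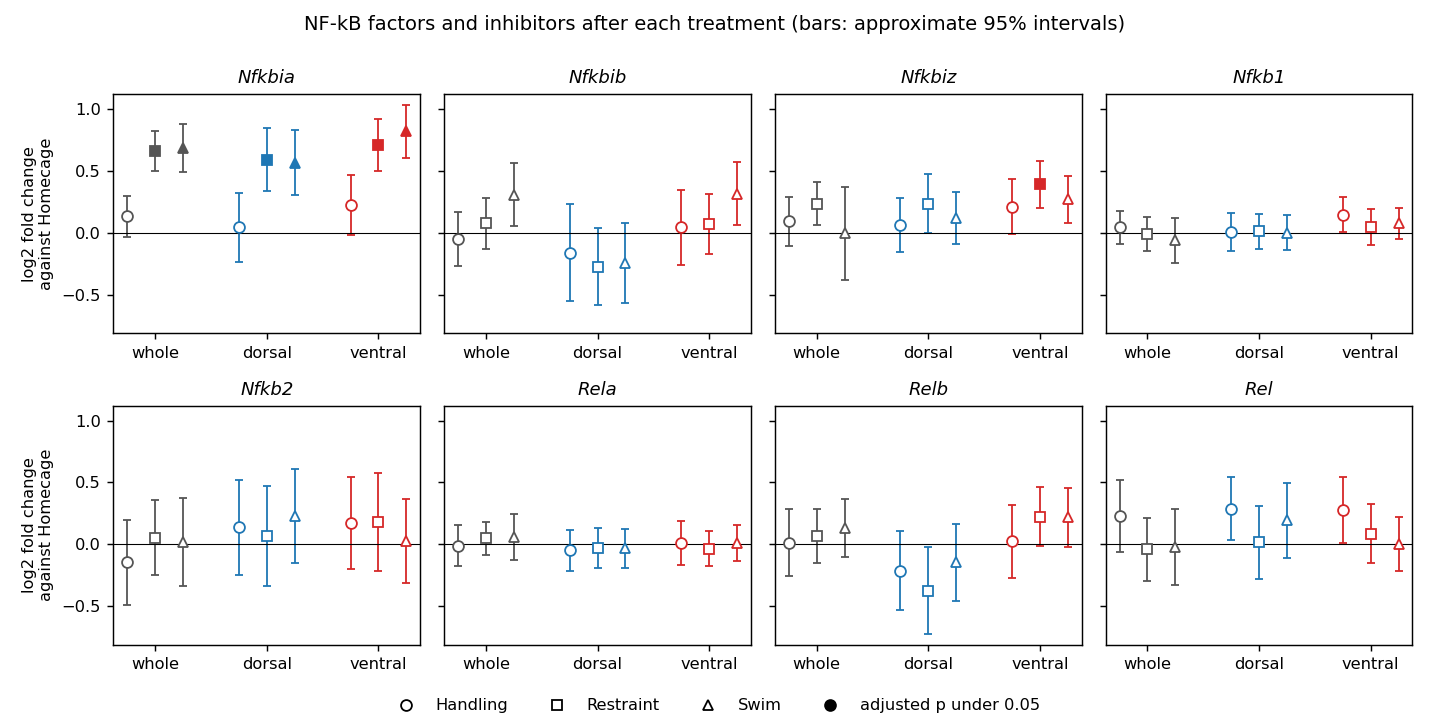
Log2 fold change against Homecage of each NF-kB gene (vertical axis) in whole (grey), dorsal (blue) and ventral (red) hippocampus after Handling (circles), Restraint (squares) and Swim (triangles). Bars are approximate 95% intervals and filled symbols passed an adjusted p of 0.05: the 6 Restraint and Swim values of Nfkbia, and Nfkbiz in ventral Restraint.

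Among the inhibitors, Nfkbia encodes IkB alpha, the feedback inhibitor. In whole hippocampus the authors' deposited tables give mean estimated counts of 258.6 in Homecage, 272.2 after Handling, 404.6 after Restraint and 425.4 after Swim. In dorsal hippocampus the same means in the authors' deposited tables were 313.2, 337.4, 466 and 488.4, and in ventral hippocampus 293, 335.8, 474.6 and 505.8. In each tissue the Restraint and Swim means lie close together and well above the Homecage and Handling means. On the log2 scale the authors' deposited tables put whole Restraint at 0.66 ± 0.08 (standard error) with an adjusted p of 5.1e-13 and whole Swim at 0.69 ± 0.10 with 3.2e-09. Dorsal Restraint stood at 0.59 ± 0.13 (adjusted p 0.00215) and dorsal Swim at 0.57 ± 0.13 (0.00967) in the authors' deposited tables. Ventral Restraint stood at 0.71 ± 0.11 (adjusted p 1.8e-08) and ventral Swim at 0.82 ± 0.11 (2.3e-11) in the authors' deposited tables. These are the 6 rises. After Handling the authors' deposited tables give 0.14 ± 0.08, 0.04 ± 0.14 and 0.23 ± 0.12 in whole, dorsal and ventral hippocampus, with adjusted p from 0.74 to 1. None of these 3 values passed.

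Other tissue and cell markers were set beside the Nfkbia rises. Dorsal Restraint is a table with high choroid plexus markers (3 of 7 higher, median 2.68), and in ventral Handling, where all 10 of 10 were higher with a median of 3.33, Nfkbia did not pass. In the other 5 Restraint and Swim tables, where the median of these markers was 0.25 to 0.80, Nfkbia stood at 0.57 to 0.82 against 0.59 in dorsal Restraint. Some choroid plexus markers passed there too, 2 of 8 in whole Restraint and 1 of 6 in ventral Restraint, and none in the 3 Swim tables. Their part in the Nfkbia values was not tested. Microglia markers summed to between 389 and 477 CPM over the 12 groups with all 12 markers measured and none at 0. None of them passed in 8 of the treatment tables and 1 of 12 was higher in ventral Swim. In whole Swim 4 of 12 had an unadjusted p under 0.05, with a median of 0.17 (415 CPM in whole Homecage and 477 after Swim). In dorsal Swim 2 of 12 did, with a median of -0.09. Endothelial markers summed to between 313 and 374 CPM, none at 0, and 1 of 12 was higher in whole and ventral Restraint and Swim. Hippocampal neuron markers were higher in 4 of 8 cases in ventral Restraint and in 3 of 8 in ventral Swim (1140 CPM in ventral Homecage, 1248 and 1181 after these treatments, none at 0), and their part in the Nfkbia and Nfkbiz values of these tables was not tested. The endothelial marker, Slc2a1 (the glucose transporter of the blood-brain barrier), is named after its values were seen. Oligodendrocyte markers were higher in 1 of 8 cases in dorsal Swim, ventral Restraint and ventral Swim, with medians of 0.20, 0.14 and 0.11. In whole Swim none passed, but 5 of 8 had an unadjusted p under 0.05 and the median was 0.26 (3481 CPM in whole Homecage and 4257 after Swim, none at 0). Of 7 blood cell markers 5 were measured and none passed. Their median was 0.61 in whole Restraint, where all 5 had an unadjusted p under 0.05, and 0.84 in whole Swim, but -0.03 to -0.55 in the dorsal and ventral Restraint and Swim tables. Summed, they stood at 199 CPM in whole Homecage, 306 after Restraint and 382 after Swim. No meningeal fibroblast marker passed. At an unadjusted p under 0.05 there were 3 of 8 in whole Restraint (median 0.25) and 2 of 8 in whole Swim (0.22). In ventral Restraint there were 4 of 8 (median -0.24), in ventral Swim 3 of 8 (-0.16), and in dorsal Restraint and Swim 0 of 8 (-0.31 and 0.14). The part of the microglia, endothelial, oligodendrocyte, blood cell and meningeal markers in the Nfkbia values was not tested. In bulk tissue a change in the number of cells that hold a transcript and a change in its amount per cell cannot be told apart.

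Nfkbiz, the inducible nuclear member, was lower in count than Nfkbia. Its mean estimated counts in ventral hippocampus were 185.2 in Homecage, 208.8 after Handling, 240.6 after Restraint and 218.2 after Swim in the authors' deposited tables. The ventral Restraint rise was 0.39 ± 0.10 on the log2 scale (adjusted p 0.0062), and ventral Swim at 0.27 ± 0.10 did not pass (0.0595), in the authors' deposited tables. In dorsal hippocampus the authors' deposited means were 209.6, 229.2, 244.6 and 238.0, and in whole hippocampus 169.4, 173.2, 196.2 and 171.4, in the same order of conditions. Restraint thus had the highest Nfkbiz mean of each tissue, although only the ventral value passed. The log2 values after Restraint in the authors' deposited tables were 0.23 ± 0.09 in whole hippocampus (adjusted p 0.645) and 0.24 ± 0.12 in dorsal hippocampus (0.523). Its whole Swim value was -0.00 with the widest error of its 9 values, 0.19.

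Nfkbib encodes IkB beta, the other classical cytoplasmic inhibitor. Its 9 log2 values in the authors' deposited tables ran from -0.27 in dorsal Restraint to 0.32 in ventral Swim, and none passed. Whole Swim (0.31 ± 0.13, adjusted p 0.819) and ventral Swim (0.32 ± 0.13, adjusted p 0.103) had the highest values in the authors' deposited tables, and dorsal Swim stood at -0.24 ± 0.17. The count of Nfkbib in whole hippocampus was 219.2 in Homecage and 277.8 after Swim in the authors' deposited tables, and in dorsal hippocampus 343.8 and 305.2. With the GC trend subtracted, the Nfkbib value was -0.11 in dorsal Restraint, -0.07 in dorsal Swim and 0.13 in ventral Swim, and none passed. Of its overlapping partners, Ccer2 was lower in ventral Swim, with means of 26 in Homecage and 14.2 after Swim and a log2 value of -0.83 ± 0.25 (adjusted p 0.0268) in the authors' deposited table. Sirt2 had 2697.2 and 2859.2 there and a log2 value of 0.12 ± 0.05 (adjusted p 0.138) in the authors' deposited table. The part of reads of these partners in any Nfkbib value was not tested.

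The factors did not change past the test in any treatment table. Rela, the main activating subunit, had log2 values between -0.05 and 0.06 in the authors' deposited tables, the narrowest range of the 8 as deposited. With the GC trend subtracted its values ran from -0.15 to 0.11, a wider range than that of Nfkb1 (-0.07 to 0.13). Its means in whole hippocampus were 320.4, 305, 326.2 and 342.2 for Homecage, Handling, Restraint and Swim in the authors' deposited tables. In dorsal hippocampus they were 456, 457.2, 439.8 and 465.6, and in ventral hippocampus 466.4, 459.6, 449.6 and 460, also from the authors' deposited tables. As deposited, the approximate 95% intervals of all 9 Rela values lie within -0.21 and 0.25, so a change of the size seen for Nfkbia lies outside them. Nfkb1, which encodes the p105 precursor of p50, ran from -0.06 in whole Swim to 0.15 in ventral Handling in the authors' deposited tables, and its lowest adjusted p was 0.47.

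Nfkb2, Relb and Rel had fewer counts and wider errors. Nfkb2, the precursor of p52, had group means of 37 to 63.4 counts, and its log2 values ran from -0.15 to 0.23 with standard errors of 0.15 to 0.21 in the authors' deposited tables. Psd, which overlaps Nfkb2 and had 6549 to 12822 counts, stood at 0.38 in ventral Swim (adjusted p 0.00727) where Nfkb2 stood at 0.03, in the authors' deposited table. In dorsal Swim the authors' values were -0.34 for Psd (adjusted p 0.252) and 0.23 for Nfkb2. For ventral against dorsal hippocampus in Homecage they were -1.11 for Psd (adjusted p 3.4e-17) and -0.09 for Nfkb2. The part of Psd reads in the Nfkb2 values was not tested. Relb, the partner of p52 in the noncanonical branch, was the lowest of all 72 values at -0.38 ± 0.18 in dorsal Restraint (adjusted p 0.461), with means of 146.2 in Homecage and 112.4 after Restraint in the authors' deposited table. In ventral hippocampus Relb had 152.6 and 176.2 in the same conditions and a log2 value of 0.22 ± 0.12 (adjusted p 0.445) in the authors' deposited table. Rel, which encodes c-Rel, had its 3 highest values after Handling: 0.23, 0.29 and 0.28 in whole, dorsal and ventral hippocampus in the authors' deposited tables. Their adjusted p were 0.998, 1 and 0.657, so none passed.

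The levels set the scale of these changes. Per kb of the longest transcript, Nfkbia had the highest level of the 8 in every group, 7.43 to 13.1 CPM per kb. Rela followed with 5.64 to 7.19, Nfkbib with 4.92 to 7.14 and Nfkb1 with 4.63 to 5.99. Nfkbiz (1.80 to 2.58) and Relb (1.49 to 2.16) formed a lower pair, and Rel (0.646 to 0.946) and Nfkb2 (0.483 to 0.680) were lowest. The ranges of Rela, Nfkbib and Nfkb1 overlap, as do those of Nfkbiz and Relb and of Rel and Nfkb2, and Rela and Nfkbib changed places in whole Swim. Without a spread between libraries these neighbours are not ordered further. Over all exons joined, Nfkb1 had 1.59 to 2.06 CPM per kb, since its joined exons run to 12061 bases against 4149 for its longest transcript. In CPM, without length, the ratio of the highest to the lowest group was 1.76 for Nfkbia and 1.27 to 1.46 for the other members.

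**Figure D2:**
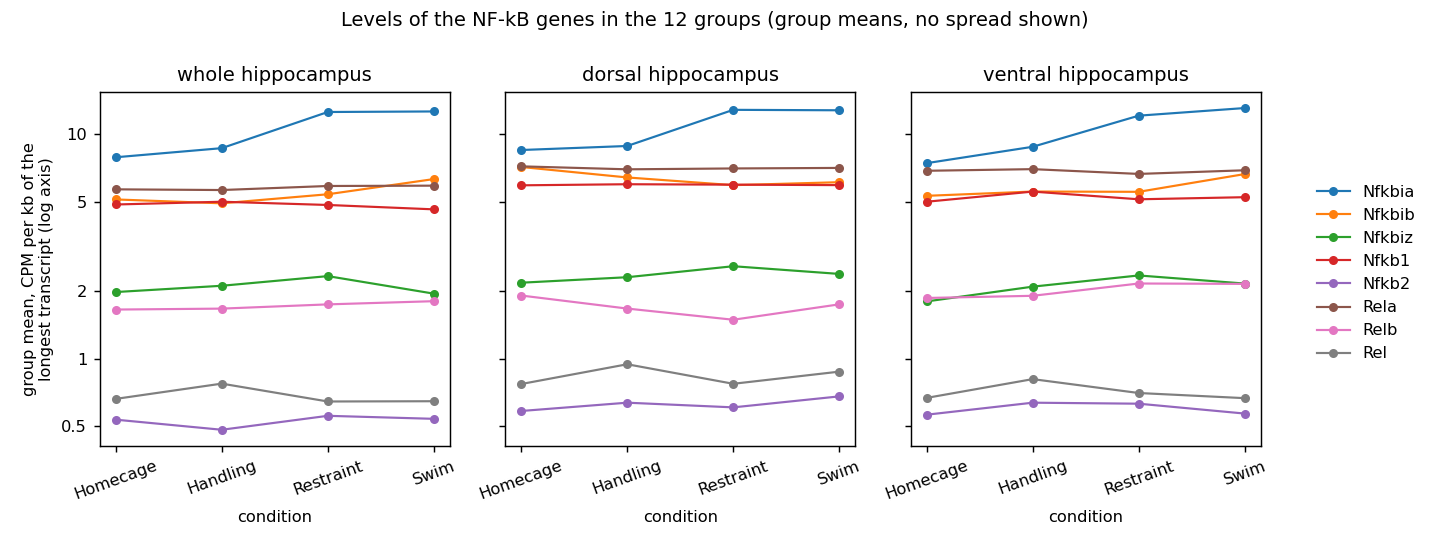
Group mean level of each NF-kB gene in CPM per kb of its longest transcript (vertical log axis) in the 4 conditions, by tissue. Nfkbia lies above the other 7 in all 12 groups and stands higher after Restraint and Swim, while Rela stays between 5.64 and 7.19.

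At baseline the regions differed. In Homecage mice 3 of 8 members were lower in ventral than in dorsal hippocampus and none was higher, in a table where 38.4% of all genes passed, so 3 of 8 is close to that background. Nfkb1 had means of 573.5 in dorsal and 518.8 in ventral hippocampus and a log2 value of -0.29 ± 0.07 (adjusted p 4.3e-04) in the authors' deposited table. Nfkbiz had 209.6 and 185.2 and a log2 value of -0.33 ± 0.11 (adjusted p 0.0121) in the authors' deposited table. Nfkbib had 343.8 and 273.8 and a log2 value of -0.47 ± 0.17 (adjusted p 0.0188) in the authors' deposited table. The group totals were 23.4M counts in dorsal and 25M in ventral Homecage, and the log2 values are after the authors' scaling while the means are not. The other 5 also had values below 0 in the authors' deposited table: Rel at -0.24 ± 0.12 (adjusted p 0.11), Nfkbia at -0.24 ± 0.15 (0.211), Rela at -0.11 ± 0.08 (0.307), Relb at -0.09 ± 0.17 (0.711) and Nfkb2 at -0.09 ± 0.19 (0.765).

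When the trend of fold change on GC content was subtracted, Nfkbib no longer passed (-0.25, adjusted p 0.284), Rel did (-0.37, 0.0109), and Rela, Relb and Nfkb2 lay above 0 without passing. These adjusted p keep the standard error of the deposited value and leave out the error of the fitted trend. Nfkb1 (-0.30, adjusted p 1.8e-04) and Nfkbiz (-0.38, 0.00367) passed either way. Markers of cell types moved with this contrast. Of 12 microglia markers 8 were lower in ventral hippocampus (median -0.25, summed level 460 CPM in dorsal and 389 in ventral Homecage, none at 0). All 8 oligodendrocyte markers were lower (median -0.63, 4528 and 3042 CPM), and of 8 hippocampal neuron markers 5 were lower and 1 higher (1724 and 1140 CPM). Meningeal fibroblast markers were higher in 5 of 8 cases (median 0.67, 34.6 and 127 CPM), and the collagens among them did not pass. Most of the ventral sum is Dcn, with means of 160 in dorsal and 2120.8 in ventral hippocampus in the authors' deposited table (log2 value 3.57). The part of these cell type markers in the values of Nfkb1, Nfkbiz and Nfkbib was not tested. Ccer2 on the other strand of Nfkbib was higher in ventral hippocampus, with means of 6.4 and 26 in the authors' deposited table, and Sirt2 lower, with 2921.2 and 2697.2.

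**Figure D3:**
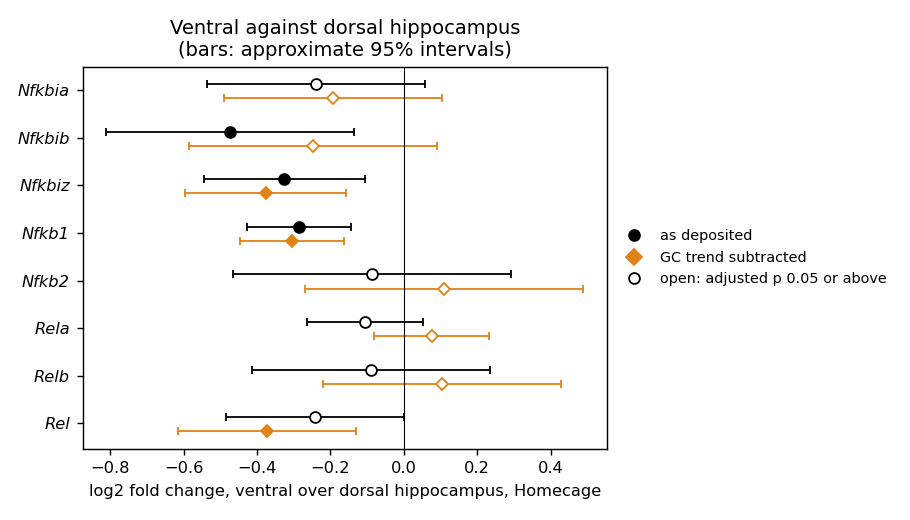
Log2 fold change of ventral over dorsal hippocampus in Homecage mice (horizontal axis) for each NF-kB gene, as deposited (black circles) and after the GC trend was subtracted (orange diamonds), with approximate 95% intervals. Both intervals have the width of the deposited value, without the error of the fitted trend. Filled symbols passed an adjusted p of 0.05: Nfkb1, Nfkbiz and Nfkbib as deposited, and Nfkb1, Nfkbiz and Rel after subtraction.

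Whether the ventral and dorsal responses differed was tested by subtracting the dorsal from the ventral log2 fold change. The error of the difference treats the regions as separate samples, and mice that may be shared between them are not accounted for. None of the 24 differences (8 genes, 3 treatments) passed an adjusted p of 0.05. At an unadjusted p under 0.05 there were 2, and the share of all genes at that cut was not worked out. Over all genes the shares that passed were 0.0889% for Handling, 1.98% for Restraint and 10.2% for Swim. For Nfkbia the difference was 0.18 (95% interval -0.19 to 0.55) after Handling, 0.12 (-0.21 to 0.45) after Restraint and 0.25 (-0.08 to 0.59) after Swim. Differences of up to 0.55, 0.45 and 0.59 therefore remain within the intervals. Of the 24, the largest difference was that of Relb after Restraint, 0.60 ± 0.22 (adjusted p 0.132), and the next that of Nfkbib after Swim, 0.56 ± 0.21 (0.0636). Rela differed least in Restraint (-0.01, interval -0.22 to 0.21). With the GC trend subtracted from both tables Relb stood at 0.38 and Nfkbib at 0.20, and the number of genes of any kind that passed went from 267 to 14 after Restraint and from 1383 to 31 after Swim. Nfkbiz, past the test in ventral but not in dorsal Restraint, had a difference of 0.16 (interval -0.15 to 0.46), which did not pass.

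**Figure D4:**
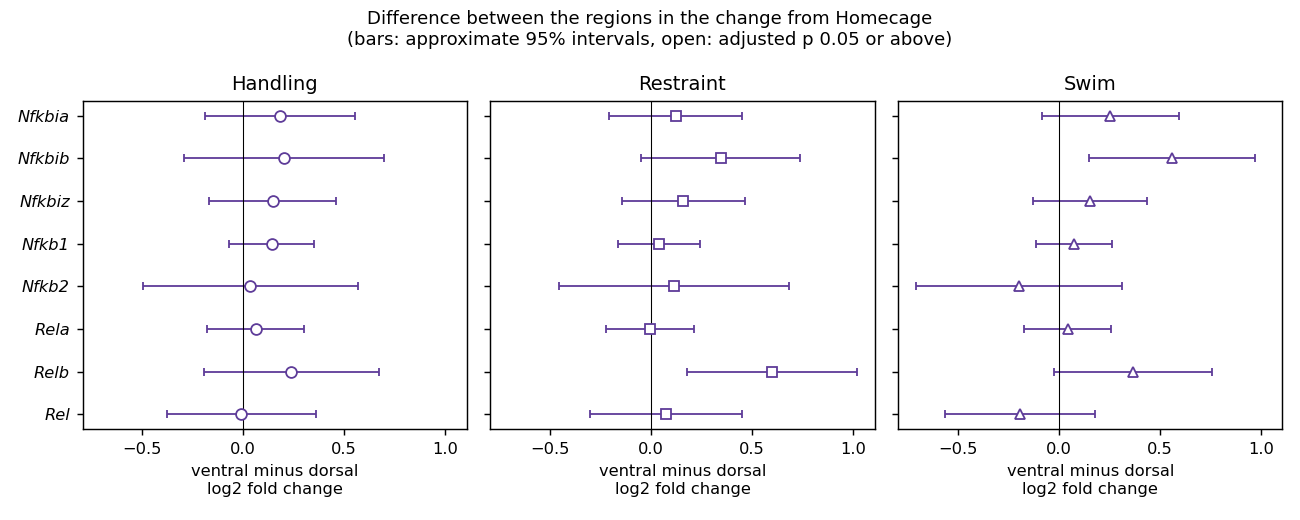
Ventral minus dorsal log2 fold change against Homecage (horizontal axis) of each NF-kB gene after Handling, Restraint and Swim, with approximate 95% intervals. All 24 symbols are open, since none passed an adjusted p of 0.05, and the intervals of Relb after Restraint and Nfkbib after Swim lie above 0.

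Whether treatments differed from each other was tested in the same way in each tissue. The paired tables share their Homecage libraries, so the error used is an upper bound. Of 72 differences (8 genes, 9 pairs of treatments), 1 passed: Nfkbia in whole hippocampus rose more after Restraint than after Handling, by 0.53 ± 0.12 on the log2 scale (interval 0.30 to 0.76, adjusted p 0.0333). It was 0.49 (adjusted p 0.0844) after the GC trend was subtracted. In whole hippocampus 0.0294% of all genes passed for Restraint minus Handling, 0.00734% for Swim minus Handling and 0% for Swim minus Restraint. The shares were 0.0147%, 0.0221% and 0% in dorsal hippocampus and 0.139%, 0.117% and 0.0073% in ventral hippocampus. Nfkbia after Swim against Handling differed by 0.55 ± 0.13 in whole (adjusted p 0.0846), 0.52 ± 0.20 in dorsal (1) and 0.59 ± 0.16 in ventral hippocampus (0.171). Restraint against Handling gave 0.55 ± 0.19 in dorsal (adjusted p 1) and 0.48 ± 0.16 in ventral hippocampus (0.974). All 6 Nfkbia differences from Handling thus lay between 0.48 and 0.59 with intervals above 0, and 1 of the 6 passed the adjustment over all genes. In each tissue both differences use the same Handling libraries, and tissues may share mice. The 6 values are therefore not independent of each other. Between Swim and Restraint the Nfkbia difference was 0.02 (interval -0.23 to 0.27) in whole, -0.02 (-0.39 to 0.34) in dorsal and 0.11 (-0.19 to 0.41) in ventral hippocampus.

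The genes whose 9 log2 fold changes lay nearest to those of Nfkbia, by root mean square difference among 13394 genes in all treatment tables, were Plekhf1 (0.157), Gem (0.161), Arrdc2 (0.166), Txnip (0.17) and Btg2 (0.172). The tables of a tissue share their Homecage libraries, so the 9 values are not independent points. These genes were picked for their likeness to Nfkbia in the same 9 values. A similar pattern of calls therefore follows from the choice and is no separate result. Txnip, an inhibitor of thioredoxin, passed in all 6 Restraint and Swim tables and in no Handling table, with log2 values of 0.46 to 0.91 in the authors' deposited tables. Btg2, an antiproliferative early gene, passed in 5 of those 6 and in ventral Handling. Arrdc2, an arrestin relative, passed in 5 of the 6, Plekhf1 in 3 and Gem, a small GTPase, in 2. The Plekhf1 and Gem values rest on few counts, 37.8 to 87.8 and 22 to 43 as group means in the authors' deposited tables.

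The 120 other listed genes of the NF-kB pathway fall into other inhibitors, ligands, receptors, adaptors and kinases, brakes, and target genes, and gave 809 values in the 9 treatment tables, of which 10 passed (1.24%), 8 higher and 2 lower. Over all genes 1.42% of the values in these 9 tables passed, so the pathway's share is near that background. None of 113 receptor values passed, with 11 at an unadjusted p under 0.05. None of 107 values of brakes such as Cyld passed, with 7 at an unadjusted p under 0.05. The share of all genes at that unadjusted cut was not worked out. List medians stayed between -0.08 and 0.13, beside medians of all genes between -0.01 and 0.01. Of the listed genes, 9 of 15 ligands, Tnf, Il1a and Il1b among them, and 12 of 35 target genes, with Ccl2, Il6, Cxcl1 and Nos2, were not among the genes tested.

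**Figure D5:**
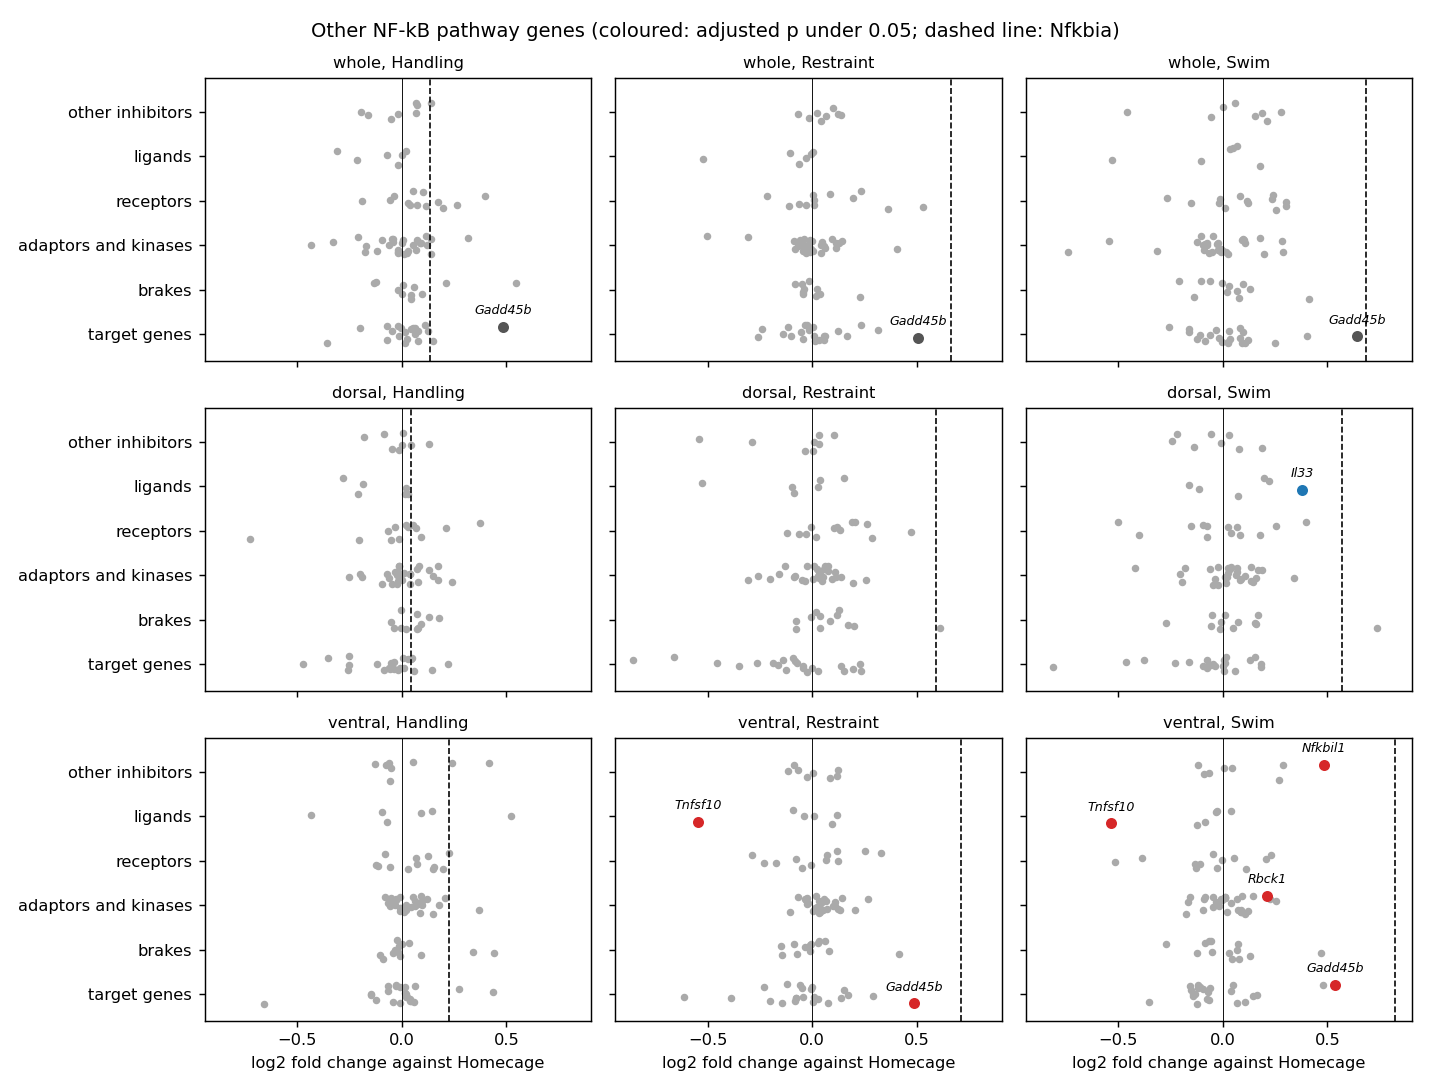
Log2 fold change against Homecage (horizontal axis) of the other NF-kB pathway genes by list, 1 panel per treatment table, with genes past an adjusted p of 0.05 coloured and named and Nfkbia as a dashed line. Of the 10 coloured points 5 are Gadd45b, the list medians lie between -0.08 and 0.13, and the dashed line lies to the right of most points in the 6 Restraint and Swim panels.

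Among the target genes, 1 of up to 23 passed in 5 tables, and it was Gadd45b each time. Gadd45b encodes a stress-inducible protein that is also an activity-induced gene in neurons. In whole hippocampus its mean was 110.6 in Homecage, 148 after Handling, 155.4 after Restraint and 178 after Swim in the authors' deposited tables, and the log2 values were 0.48 ± 0.12, 0.51 ± 0.10 and 0.64 ± 0.14. All 3 passed (adjusted p 0.0331, 6.3e-05 and 0.00291). In ventral hippocampus the authors' deposited tables give 0.49 ± 0.14 after Restraint (adjusted p 0.0335) and 0.54 ± 0.14 after Swim (0.00624). Unlike Nfkbia, Gadd45b passed after Handling in whole hippocampus, and in dorsal hippocampus it passed in no table.

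Of the other lists, the IkB-type inhibitors gave 1 call in 72 values. Nfkbil1, an IkB-like gene, was higher in ventral Swim by 0.48 ± 0.16 (means 105.2 and 144, adjusted p 0.0426) in the authors' deposited table. Nfkbie, which encodes IkB epsilon, and Nfkbid, which encodes IkB NS, passed in no treatment table: Nfkbie ran from -0.01 to 0.29 and Nfkbid from -0.46 to 0.42 in the authors' deposited tables. Among adaptors and kinases 1 of 262 values passed, Rbck1, a subunit of the linear ubiquitin ligase, higher by 0.21 ± 0.06 in ventral Swim (adjusted p 0.0115) in the authors' deposited table. Of the 6 measured ligands, Il33, an alarmin of glial cells, was higher in dorsal Swim by 0.38 ± 0.09 (means 770 and 1041.6, adjusted p 0.0194) in the authors' deposited table. Tnfsf10, which encodes the death ligand TRAIL, was lower in ventral hippocampus after Restraint by -0.55 ± 0.16 (adjusted p 0.0248) and after Swim by -0.53 ± 0.14 (0.00889) in the authors' deposited tables, on means of 78.4 and 52.7. Oligodendrocyte markers stood beside the Il33 value with 1 of 8 higher in dorsal Swim (median 0.20, summed level 4528 CPM in Homecage and 5222 after Swim, none at 0), and their part in it was not tested. After the GC trend was subtracted 3 of the 10 calls remained, all Gadd45b in whole hippocampus, and no other was gained. The lost values differed in how far they moved. Gadd45b was then at 0.43 in ventral Restraint (adjusted p 0.114) and 0.41 in ventral Swim (0.183), and Tnfsf10 at -0.51 (0.055) and -0.44 (0.14) in the same tables. Il33 was at 0.29 in dorsal Swim (adjusted p 0.255) and Nfkbil1 at 0.26 in ventral Swim (0.796), while Rbck1 was at 0.04 in ventral Swim (0.984). Between the regions in Homecage, 35 of 91 pathway genes passed (38.5%), 12 higher and 23 lower in ventral hippocampus, beside the 38.4% of all genes.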

How the data were processed

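Poly(A)-enriched RNA of 60 mouse hippocampus libraries (12 groups of 5, from the labels) was used through 10 tables of the authors' comparisons. Per the file headers, a deposited table holds the mean estimated count of both its groups, the deposited fold change (a ratio after the authors' own scaling) and its log2 value. It also holds the authors' deposited p-value and adjusted p, whose test is not named in any source used here. Bowtie 0.12.2 and the genome build mm8 appear in the submitters' processing notes, which give no step for them. The aligner and counting program of the tables were not given in the sources used. Tables hold 13610 to 13784 genes once 144 to 148 repeated entries were dropped, and the deposited adjusted p equalled a Benjamini-Hochberg adjustment over all entries. Library values were not used, so depth is known as group totals of 19.9M to 25M counts (M, mega). The series' design text gives 5 mice per condition, so tissues may share mice, which no test here takes into account.

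The members and lists were chosen with earlier results of these data known. Calls are the authors' adjusted p at 0.05. The count test planned for library values could not be used. The standard error of a log2 fold change is its size divided by the normal quantile of its p-value, and 95% intervals follow from it. A difference of 2 log2 fold changes was divided by the root of their summed squared errors and referred to the normal distribution, with Benjamini-Hochberg adjustment over all genes of both tables. CPM is the group mean over its total in genes held in all tables. GC content and lengths came from GENCODE M21 (GRCm38), and the GC trend is a lowess fit with fraction 0.3. Values with the GC trend subtracted or with total-count scaling kept the standard error of the deposited value. They were tested with the normal distribution and adjusted again over all genes with a value, and the error of the fit was left out. Promoters came from RefSeq. The named genes are the 8 members, up to 4 genes per pathway list and table with the lowest adjusted p past 0.05, the 5 nearest to Nfkbia, and Fos and Sgk1. Outside this rule, genes that overlap a member were named for that overlap, and Nfkbie, Nfkbid and Slc2a1 with their values known. Scripts (Python 3.11.15, pandas 2.3.3, numpy 2.4.6, scipy 1.17.1, statsmodels 0.14.6, matplotlib 3.10.9) were tested on simulated data.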

Additional observations from a re-analysis of the deposited data

Results flagged for a closer look

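Among the named pathway genes, 4 changed differently in ventral and dorsal hippocampus after Swim, by the test of the difference itself. The ventral minus dorsal log2 fold change was 0.60 for Gadd45b (adjusted p 0.049), from 0.54 in ventral and -0.07 in dorsal hippocampus. It was -0.50 for Il33 (adjusted p 0.00247), from -0.12 and 0.38. Rbck1 differed by 0.41 (adjusted p 0.00507), from 0.21 and -0.19, and Nfkbil1 by 0.70 (adjusted p 0.0413), from 0.48 and -0.22. In the same comparison 10.2% of all genes passed. The fold changes followed transcript GC content in opposite directions, with rank correlations across genes of 0.70 in ventral Swim and -0.60 in dorsal Swim. With that trend subtracted from both tables the differences were 0.39 for Gadd45b (adjusted p 0.87), -0.31 for Il33 (0.413), 0.08 for Rbck1 (1) and 0.28 for Nfkbil1 (1), and none of the 4 passed.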

How the results depend on the processing

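No paired analysis was possible because the tables hold group means, and leaving out each replicate in turn was not run for the same reason. Of the treatment calls of members, 7 as reported, 8 passed at an adjusted p of 0.1, 7 with a mean count of at least 100, with total-count scaling or with the GC trend subtracted, and 6 without dorsal Restraint and ventral Handling or without ventral Swim, the last pair chosen after seeing the data. The Nfkbia rises kept a log2 value of 0.57 to 0.82 as deposited, with total-count scaling and with the GC trend subtracted. The 3 Homecage calls stayed 3 in number, but Nfkbib was lost and Rel gained with the GC trend subtracted. Regional differences numbered 0 as reported, 1 at an adjusted p of 0.1 (Nfkbib, Swim) and 3 with a t quantile of 8 degrees of freedom. Treatment differences numbered 1 as reported, 2 at 0.1, 5 with the t quantile, 4 with a control correlation of 0.5 and 0 with the GC trend subtracted, and each of these calls is Nfkbia. The t quantile makes every error smaller by construction, most for very small p-values, while the differences were still referred to the normal distribution. With it the genes of any kind that differed between regions went from 267 to 851 (Restraint) and from 1383 to 2625 (Swim). Calls added by the t quantile therefore follow from the setting and are not read as results. Pathway calls, 10 as reported, were 18 at 0.1 and 3 with the GC trend subtracted. Without calls, 18 of 80 member values changed sign with the GC trend subtracted: Rela in whole Handling (0.0302), dorsal Handling (0.0297), dorsal Restraint (0.10), dorsal Swim (0.11), ventral Handling (-0.0911), ventral Swim (-0.15) and Homecage (0.0756), Nfkb2 in whole Swim (-0.041), ventral Swim (-0.14) and Homecage (0.11), Rel in whole Swim (0.0259) and dorsal Restraint (-0.0403), Nfkb1 in dorsal Restraint (-0.0071) and dorsal Swim (-0.0042), Nfkbib in ventral Handling (-0.0697) and ventral Restraint (-0.0258), and Relb in ventral Handling (-0.0825) and Homecage (0.10). Rel in ventral Swim changed sign with total-count scaling (-0.004). The cause was not tested. Per kb of all exons joined, whole Homecage levels were 7.73 for Nfkbia, 4.87 for Nfkbib, 1.63 for Nfkbiz, 1.67 for Nfkb1, 0.450 for Nfkb2, 5.02 for Rela and 1.40 for Relb CPM per kb. Depth limits Nfkb2 most, at 37 to 63.4 counts.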
